A study of Homo sapiens with 6 samples.

Results

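The genes described here encode 4 ligands and 2 receptors of the epidermal growth factor (EGF) receptor system: EREG (epiregulin), AREG (amphiregulin), TGFA (transforming growth factor alpha), HBEGF (heparin-binding EGF-like growth factor), EGFR and ERBB3. They were taken as 6 windows of the genome build hg19, each made of the gene and margins of about 30 to 50 kb on both sides, and the members were all called intervals that touched a window by at least 1 bp. The windows together span 880 kb. They held 81 of the 73341 intervals in the 4 deposited lists. These were 9 of 5216 EHF peaks of replicate 2, 1 of 1537 EHF peaks of replicate 1, 33 of 34638 H3K27ac regions and 38 of 31950 H3K4me1 regions.

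The ligands are made as membrane-bound precursors that are released by cell-surface proteases such as ADAM17, and they activate receptors on the same or neighbouring cells. EGFR is a receptor tyrosine kinase that binds all 4 ligands. ERBB3 binds neuregulins instead, has little kinase activity of its own and signals through partners such as ERBB2 and EGFR. In airway epithelium this system is known for driving cell migration and proliferation after injury.

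The lists come from chromatin immunoprecipitation followed by sequencing (ChIP-seq) in Calu-3, an established human lung adenocarcinoma line used as a model of airway epithelium. EHF, an ETS-family transcription factor of epithelial cells, was immunoprecipitated in 2 replicate libraries, and H3K27ac, a mark of active enhancers and promoters, and H3K4me1, a mark of enhancers, in 1 library each. Input DNA was sequenced in 2 further libraries, the first used for the EHF calls and the second for the marks, and these were not analysed here. The cells were grown in low-glucose DMEM with serum and the labels name no treatment, so that nothing is compared between conditions, no test over samples exists, and the values below are counts, shares and ranks. The EHF libraries held 8418631 tags (replicate 2) and 10176290 tags (replicate 1), and the mark libraries 21426939 (H3K27ac) and 12989646 (H3K4me1). Peaks held 0.74% of the tags of EHF replicate 2 and 0.155% of those of replicate 1.

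An interval's score is the authors' value, its tag count scaled to 10000000 tags in the library, and it has no error of its own. Scores of different lists are not comparable. An absent interval means only that no signal passed the caller's thresholds, which include at least 4-fold more tags than input. A local filter over 10000 bp is also named, and which lists it was applied to was not analysed here.

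The windows carried more of both marks than the genome at large. H3K27ac regions covered 10.7% of the windows' bases and 2.1% of the genome's 3090 Mb as spanned by the lists, and H3K4me1 regions covered 3.8% and 0.764%. The AREG window was below the genome for H3K27ac, at 1.47%. For H3K4me1 the ERBB3 window, at 0.728%, and the EREG window, which held none, were below it. EHF peaks of replicate 2 numbered 1.02 per 100 kb in the windows and 0.169 per 100 kb in the genome. The windows were placed on genes, whereas the genome includes long stretches without any. Of all 100 kb tiles of the genome, 45.4% held an H3K27ac region, 37.8% an H3K4me1 region, 12.8% an EHF peak of replicate 2 and 4.49% an EHF peak of replicate 1. Among the tiles with an H3K27ac region, 25.1% also held a replicate 2 peak. All 6 windows held an H3K27ac region, 5 held an H3K4me1 region, 5 held a replicate 2 peak and 1 held a replicate 1 peak. The windows are 80 to 290 kb long, and 3 of the 6 are longer than a tile.

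**Figure D1:**
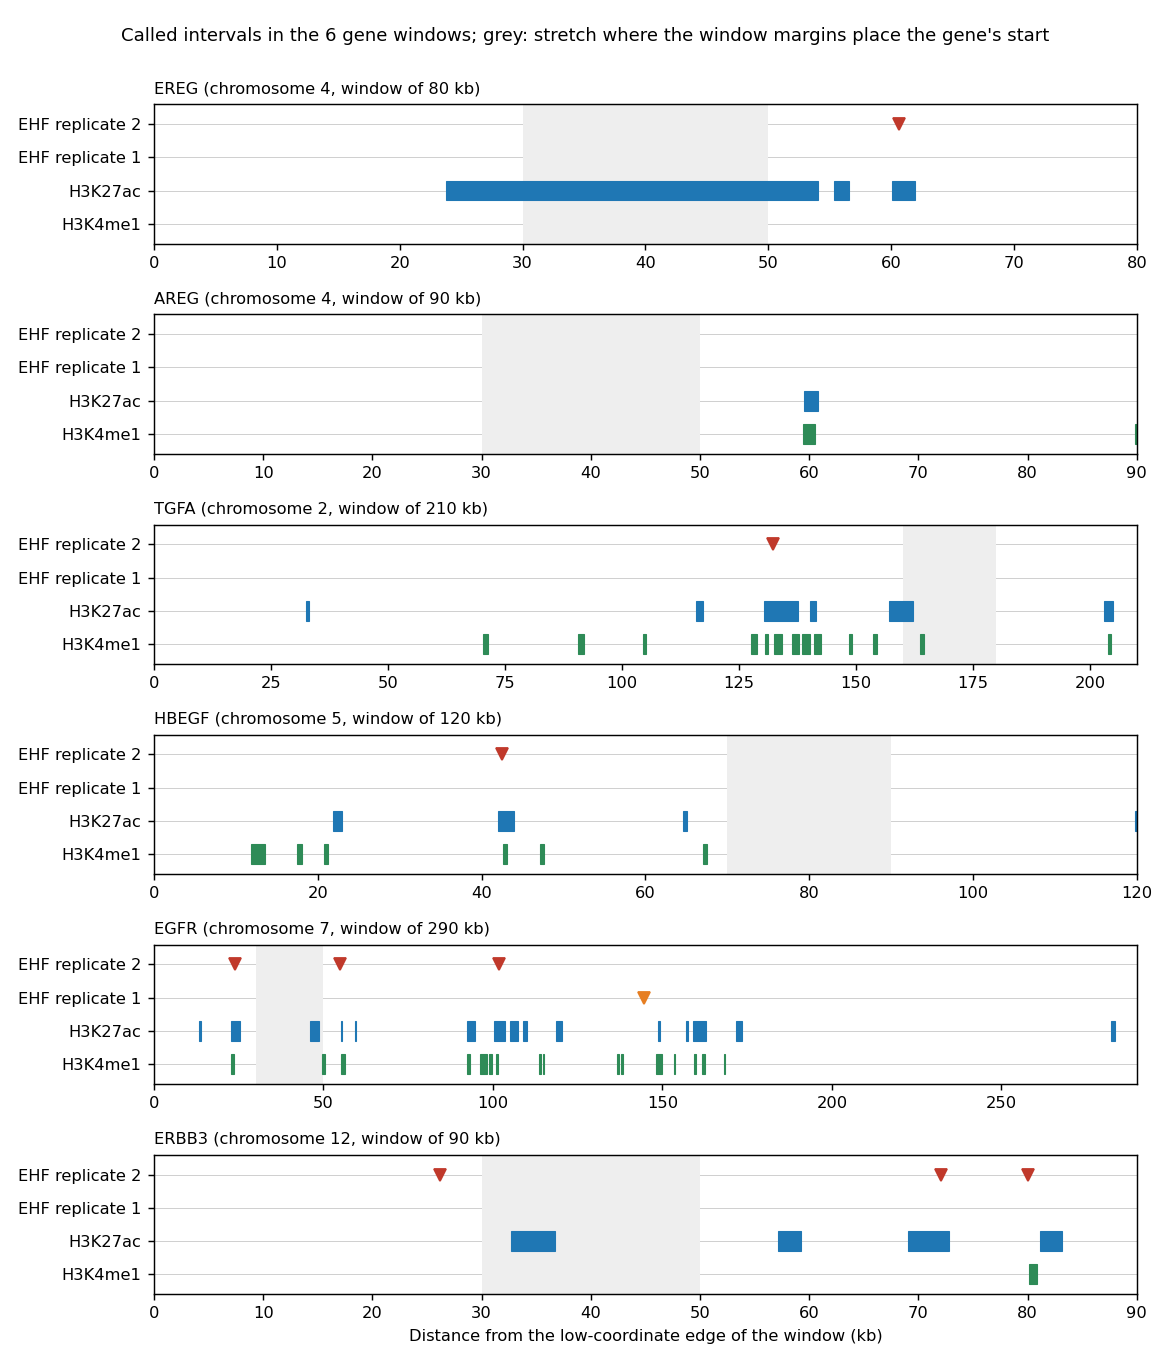
Map of the 6 windows, with the distance from the low-coordinate edge in kb on the horizontal axis of each panel. Triangles are the centres of EHF peaks, bars are H3K27ac and H3K4me1 regions to scale, and grey marks the 20 kb in which the window margins place the gene's start. The EREG panel shows a single H3K27ac region of 30244 bp across the grey stretch, and the AREG panel shows none there.

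Among the ligands, EREG had the broadest acetylation. Epiregulin is a ligand of EGFR and ERBB4. Its 80 kb window held 3 H3K27ac regions, 1 EHF peak of replicate 2, no EHF peak of replicate 1 and no H3K4me1 region. The first H3K27ac region, chr4:75223786-75254029, was 30244 bp wide. It ranked 10 of 34638 by width and 57 by score, with a score of 1638. The gene is on the plus strand, and the window margins place its start between 75230001 and 75250000, a stretch that lay wholly inside this region. The other regions were 1270 bp wide with a score of 29 and 1808 bp wide with a score of 65. H3K27ac covered 41.7% of the window, and 0.127% of all 80 kb tiles of the genome had at least as much. This region alone made up 32.1% of the H3K27ac bases and 29.3% of the H3K27ac score found in all 6 windows. Without it, H3K27ac covered 7.26% of the windows.

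The EREG domain also had a higher score per kb than the median region, but score per kb was not compared among regions of similar width. The domain ranked lower by score (57) than by width (10), and all H3K27ac regions wider than it had higher scores. Its score per kb was 54.2, against a median of 40.4 in the windows and 27.9 over all H3K27ac regions. The densest region of the other windows, at EGFR, reached 138 per kb. The nearest H3K4me1 region lay 71250 bp from it, on the side of lower coordinates and outside the 6 windows. The EHF peak, chr4:75260616-75260740, had a score of 11 and lay outside the domain, 6586 bp from its edge, inside the region with a score of 65.

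AREG stood apart from its neighbour. Amphiregulin is a ligand of EGFR, and by gene order in GRCh38.p14 it lies between EREG and BTC, the gene of a further EGFR ligand, betacellulin. Its 90 kb window held 1 H3K27ac region, 2 H3K4me1 regions and no EHF peak in either replicate. The H3K27ac region, chr4:75339497-75340818, was 1322 bp wide with a score of 30 and a score per kb of 22.7, below the list's median. An H3K4me1 region of 1093 bp with a score of 24 overlapped it, and another of 501 bp with a score of 9 crossed the window's edge. H3K27ac covered 1.47% of the window, and 32.2% of all 90 kb tiles had at least as much. No mark region reached the stretch from 75310001 to 75330000 in which the margins place the gene's start, and the nearest H3K27ac region began 9496 bp beyond it. The build hg19 carries a near-identical second copy of this gene, AREGB. How reads that match both copies were treated is not given in the sources used here, so the lack of intervals over AREG is uncertain.

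The sequences of both promoters are shown because the genes adjoin and differ in called H3K27ac over the start stretch, with the uncertainty given above for AREG. They are the 250 bases before the transcription start in RefSeq for GRCh38.p14, on the plus strand of chromosome 4 (74364895 to 74365144 for EREG and 74444886 to 74445135 for AREG), and were not placed on the hg19 lists. Capitals mark GGAA or its reverse complement TTCC, the core bound by ETS factors, on either strand.
EREG: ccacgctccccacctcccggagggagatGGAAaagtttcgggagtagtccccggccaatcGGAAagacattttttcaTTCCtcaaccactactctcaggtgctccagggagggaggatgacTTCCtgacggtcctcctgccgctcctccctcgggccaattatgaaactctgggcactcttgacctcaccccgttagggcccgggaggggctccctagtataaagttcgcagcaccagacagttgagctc
AREG: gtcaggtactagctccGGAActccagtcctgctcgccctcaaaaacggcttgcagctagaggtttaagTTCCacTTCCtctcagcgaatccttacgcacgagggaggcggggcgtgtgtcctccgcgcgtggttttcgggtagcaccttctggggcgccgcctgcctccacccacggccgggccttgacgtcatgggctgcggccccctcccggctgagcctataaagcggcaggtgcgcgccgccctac
The EREG promoter holds the core 4 times, from 125 to 218 bases before the start, and the AREG promoter 3 times, from 172 to 230 bases before it. The longer form AGGAAG, which contains the core, occurs once in each, and CCGGAA, which also contains it, occurs once in AREG and not in EREG. Of 35116 promoters in the table, 92.7% hold GGAA on either strand, 28.7% hold AGGAAG and 14.5% hold CCGGAA. No EHF peak was called in either start stretch. The EREG peak was the nearest to both, at 10615 bp from that of EREG and 49260 bp from that of AREG.

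TGFA combined H3K27ac over part of its start stretch with a cluster of H3K4me1, and whether the start itself was covered was not analysed here. Transforming growth factor alpha is a ligand of EGFR made by many epithelia. Its 210 kb window held 6 H3K27ac regions, 13 H3K4me1 regions and 1 EHF peak of replicate 2. The strongest H3K27ac region, chr2:70750260-70757679, was 7420 bp wide with a score of 518, which ranked 637 of 34638. The next, chr2:70777079-70782231, was 5153 bp wide with a score of 329, and it reached into the stretch from 70780001 to 70800000 that the margins give for the start of this minus-strand gene. The third had a score of 63 and a width of 1759 bp. H3K27ac covered 8.57% of the window and H3K4me1 6.53%, the highest H3K4me1 share of the 6 windows. Of all 210 kb tiles, 5.54% had at least as much H3K27ac and 1.07% at least as much H3K4me1.

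Several H3K4me1 regions of TGFA lay at the strongest H3K27ac region, and 5 of the 13 overlapped it or the next region beside it. Those with the highest scores, 59 and 39, were 1713 and 1586 bp wide, and the one with a score of 39 lay inside the strongest H3K27ac region. In all, 6 of the 13 overlapped H3K27ac, and 36.9% of the bases with H3K4me1 in the window also carried H3K27ac. The EHF peak, chr2:70752245-70752369, had a score of 10 and lay in the same H3K27ac region, 121 bp from the H3K4me1 region with a score of 39.

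The widest H3K27ac region of the HBEGF window, at 2728 bp, was narrower than the widest at EREG, TGFA, EGFR and ERBB3. The median width at HBEGF was 1541 bp, against 1370 bp over all H3K27ac regions. Heparin-binding EGF-like growth factor is a ligand of EGFR and ERBB4, and its membrane form is also the receptor of diphtheria toxin. Its 120 kb window held 4 H3K27ac regions, 6 H3K4me1 regions and 1 EHF peak of replicate 2. The H3K27ac regions had scores of 153, 94, 50 and 12 and widths of 2728, 2031, 1051 and 501 bp. The strongest of them, chr5:139779718-139782445, crossed the window's edge at 139780000. Most of it lay outside the window, and the margins place all of it outside the gene, so it is not assigned to HBEGF. H3K27ac covered 3.22% of the window, and 20.3% of all 120 kb tiles had at least as much. None of the regions reached the stretch from 139730001 to 139750000 in which the margins place the start of this minus-strand gene. The nearest, with a score of 12, ended 4922 bp short of it. The margins are approximate, and whether that region covers the start was not analysed here.

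The strongest H3K4me1 region of the HBEGF window, chr5:139671814-139673522, was 1709 bp wide with a score of 57, ranked 662 of 31950, and lay 8390 bp from the nearest H3K27ac region. The second, of 637 bp with a score of 16, lay 3847 bp from it. The EHF peak, chr5:139702414-139702538, had a score of 11 and lay inside the H3K27ac region with a score of 94. An H3K4me1 region of 501 bp with a score of 10 began 62 bp from that peak.

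**Figure D2:**
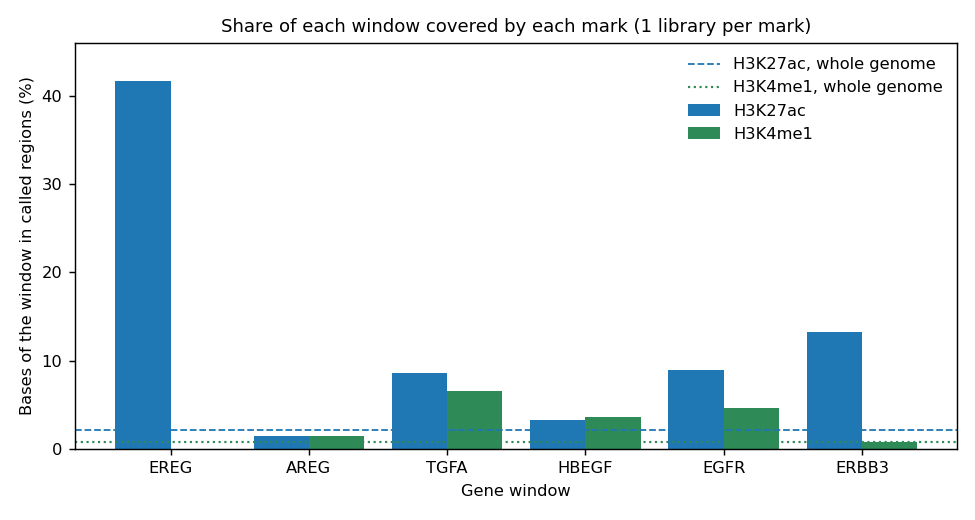
Share of each window's bases in called H3K27ac and H3K4me1 regions (vertical axis, percent), with 1 library per mark. The dashed and dotted lines give the whole genome, 2.1% for H3K27ac and 0.764% for H3K4me1. The EREG bar for H3K27ac stands at 41.7%, and the AREG window, at 1.47%, is below the genome line for H3K27ac. The ERBB3 window, at 0.728%, and the EREG window, which holds none, are below the genome line for H3K4me1. The lack of intervals over AREG is uncertain because hg19 carries a near-identical copy of the gene.

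Among the receptors, EGFR had the most intervals of every list except the replicate 2 peaks, where ERBB3 had as many. Its 290 kb window, the longest, held 15 H3K27ac regions, 16 H3K4me1 regions, 3 EHF peaks of replicate 2 and the only EHF peak of replicate 1 in the 6 windows. H3K27ac covered 8.88% of the window and H3K4me1 4.65%. Of all 290 kb tiles, 4.51% had at least as much H3K27ac, 2.17% at least as much H3K4me1 and 4.98% at least 3 peaks of replicate 2. The H3K27ac region chr7:55085970-55088566, of 2597 bp with a score of 127, lay inside the stretch from 55070001 to 55090000 in which the margins place the start of this plus-strand gene. An H3K4me1 region with a score of 18 began 1100 bp from it.

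The strongest H3K27ac regions of EGFR lay further along the gene. The strongest, chr7:55199062-55202803, was 3742 bp wide with a score of 516 and the highest score per kb of the 6 windows, 138. The second, chr7:55140336-55143701, was 3366 bp wide with a score of 396 and 118 per kb. The third, chr7:55132328-55134857, was 2530 bp wide with a score of 201. When H3K27ac regions were joined across gaps of up to 10000 bp, the regions with scores of 396 and 201 fell in a cluster of 5 regions over 28.0 kb with a summed score of 887 and the strongest in a cluster of 4 regions over 24.8 kb with a summed score of 628. They ranked 396 and 721 of 22982 such clusters. The EREG domain with both smaller regions formed a cluster of 38.1 kb with a summed score of 1732, which ranked 104. The EGFR cluster of 28.0 kb overlapped 6 H3K4me1 regions, that of 24.8 kb overlapped 5 and the EREG cluster overlapped none.

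The strongest H3K4me1 region of the EGFR window, chr7:55136244-55138272, had a score of 79, which ranked 256 of 31950. It lay between called H3K27ac regions, 1386 bp from the nearer. The second, with a score of 58, overlapped an H3K27ac region of 501 bp with a score of 21. Of the 16 regions, 7 overlapped H3K27ac. All 16 had a score per kb above the list's median of 23.2, with a range of 25.4 to 51.9 and a median of 33.4, against a median of 24.0 on the whole of chromosome 7. Of the 15 H3K27ac regions, 13 were above the list's median per kb, with a median of 40.4 against 29.9 on chromosome 7. The number of copies of the locus in Calu-3 was not measured here, and its part in these levels was not tested.

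Of 2 EGFR promoters in RefSeq, the more upstream is shown because the start stretch carried H3K27ac and H3K4me1. It is the 250 bases before the most upstream start in RefSeq for GRCh38.p14, on the plus strand of chromosome 7 (55018767 to 55019016), with the ETS core in capitals as before.
EGFR: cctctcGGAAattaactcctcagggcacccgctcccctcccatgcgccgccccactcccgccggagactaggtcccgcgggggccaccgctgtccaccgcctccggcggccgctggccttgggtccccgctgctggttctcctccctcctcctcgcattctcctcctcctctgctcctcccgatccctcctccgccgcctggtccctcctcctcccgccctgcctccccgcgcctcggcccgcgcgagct
It holds the core once, 240 bases before the start, and neither AGGAAG nor CCGGAA. Its GC content is 73.6%, against 58.0% for EREG and 65.2% for AREG. The other EGFR promoter, not shown, holds the core 5 times and AGGAAG once but not CCGGAA, and its GC content is 38.8%.

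The EHF peaks of EGFR lay before and after the stretch with the start. The strongest, chr7:55063771-55063895, had a score of 26, about 22 tags with an exact 95% Poisson interval of 13.8 to 33.3 that covers counting error only. It ranked 212 of 5216 and lay inside an H3K27ac region of 2746 bp with a score of 111, 79 bp from an H3K4me1 region with a score of 29. The next, chr7:55094964-55095088, had a score of 13, shared 23 bp with an H3K27ac region of 501 bp and lay 22 bp from an H3K4me1 region with a score of 32. The last, chr7:55141834-55141958, had a score of 12 and lay inside the H3K27ac region with a score of 396. The replicate 1 peak, chr7:55184520-55184670, had a score of 9. It overlapped no mark region, lay 4056 bp from the nearest H3K27ac region and was 42561 bp from the nearest replicate 2 peak.

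The ERBB3 window had the highest density of EHF peaks of the 6, though the margins place none of these peaks in the gene. This 90 kb window held 3 peaks of replicate 2, or 3.33 per 100 kb, and none of replicate 1. Of all 90 kb tiles, 0.588% held at least 3 peaks of replicate 2. The count depends on the window's edges, since 1 of the 3 peaks was left when 20 kb was removed at both ends. It also held 4 H3K27ac regions and 1 H3K4me1 region. H3K27ac covered 13.2% of the window, and 3.2% of all 90 kb tiles had at least as much. By the order of genes in GRCh38.p14, ERBB3 lies between RPS26 and PA2G4, and the window may hold parts of both. Intervals outside the gene, which by the margins include all 3 EHF peaks, are not assigned to it.

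The strongest H3K27ac region of the ERBB3 window, chr12:56472725-56476729, was 4005 bp wide with a score of 288 and lay in the stretch from 56470001 to 56490000 that the margins give for the start of this plus-strand gene. The next were chr12:56509069-56512767, of 3699 bp with a score of 235, and chr12:56497181-56499283, of 2103 bp with a score of 98. The fourth had a score of 51, and the margins place it and the region with a score of 235 beyond the gene. The EHF peak with a score of 21, chr12:56519996-56520120, lay outside H3K27ac, 988 bp from the region with a score of 51 and 49 bp from the H3K4me1 region of 655 bp with a score of 19. The peak with a score of 14, chr12:56511972-56512096, lay inside the region with a score of 235. The peak with a score of 11, chr12:56466142-56466266, lay 6458 bp from the region at the start stretch and 3734 bp before that stretch. No EHF peak was called inside the start stretch of any of the 6 genes.

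**Figure D3:**
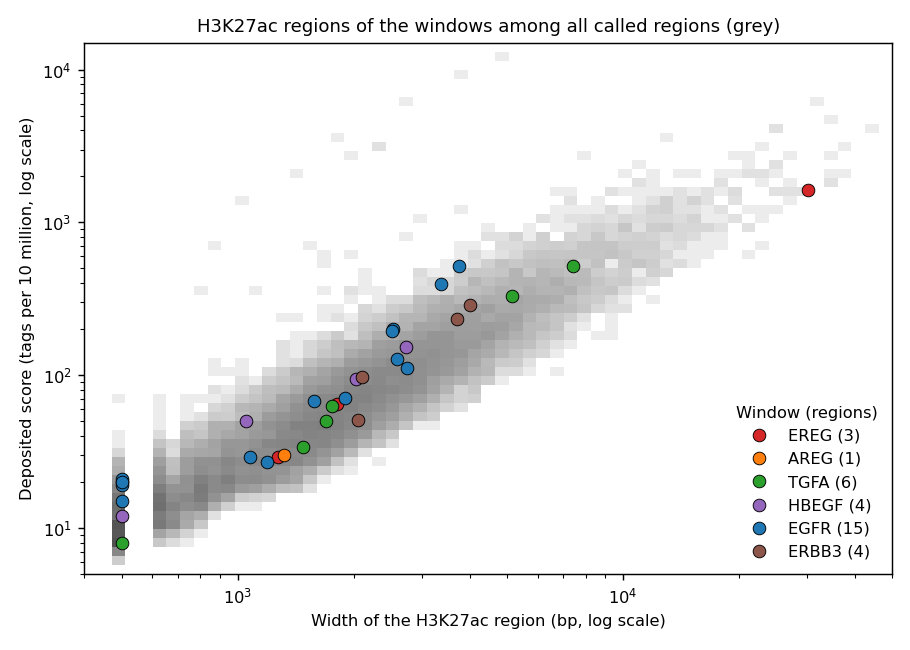
Width (horizontal, bp) and deposited score (vertical, tags per 10000000) of H3K27ac regions, both on log scales. Coloured points are the 33 regions of the windows and grey is the density of all 34638 regions. The EREG domain lies at the wide end at 30244 bp, and the EGFR regions with scores of 516 and 396 lie on the upper edge of the grey area for their width.

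None of the 10 EHF peaks was found in both replicates. Of all replicate 1 peaks, 50% (768 of 1537) overlapped a replicate 2 peak, and the single one in the windows did not. The replicate 2 peaks had a median score of 12 in the windows and in the whole list. Of these, 7 had scores of 10 to 14, a range in which 9.99% of all replicate 2 peaks were found in replicate 1. The remaining 2, in the EGFR and ERBB3 windows, had scores of 26 and 21. Of all replicate 2 peaks with scores of 20 to 29, 38.4% were found in replicate 1. The lowest score in the windows, 10 at TGFA, stands for about 8 tags, with an exact 95% Poisson interval of 3.45 to 15.8. Whether EHF binds at these positions in replicate 1 below the caller's threshold was not detectable with the lists.

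**Figure D4:**
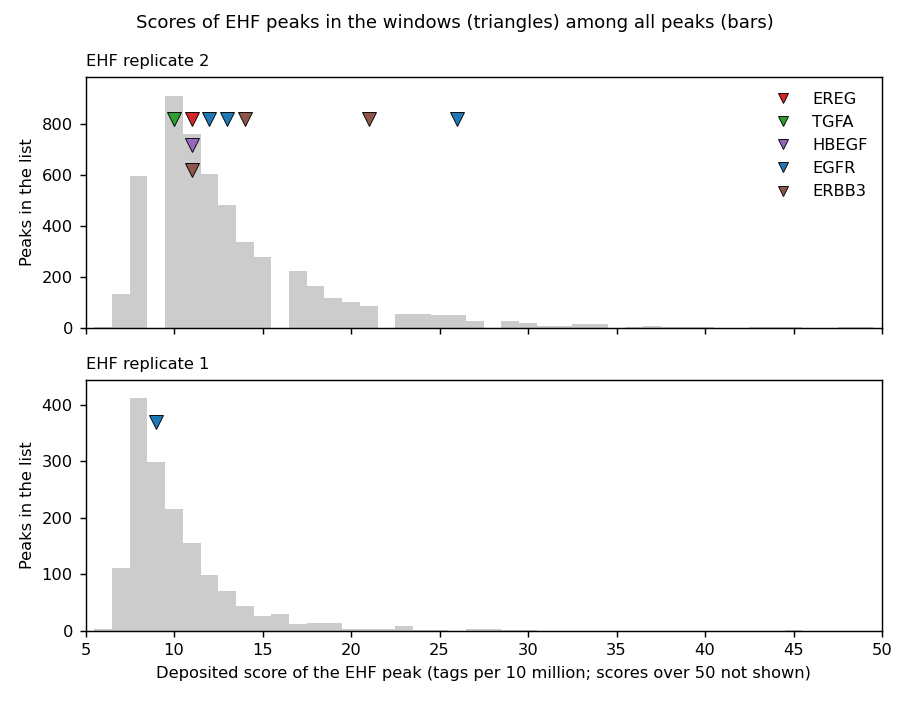
Deposited scores of the EHF peaks of the windows (triangles, coloured by gene and stacked where scores are equal) on the distribution of all peaks of the list (bars, number of peaks per score). In replicate 2, the EGFR peak with a score of 26 and the ERBB3 peak with a score of 21 lie right of the bulk and the other 7 lie between 10 and 14.

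The replicate 2 peaks lay mostly in H3K27ac regions and beside H3K4me1 regions. In the windows 7 of 9 overlapped an H3K27ac region, or 77.8% (exact 95% binomial interval 40% to 97.2%, for counting error only), against 63.8% of all replicate 2 peaks. None of the 9 overlapped an H3K4me1 region, and 7.98% of all replicate 2 peaks did. With 9 peaks, a count of 0 leaves room for shares up to 33.3% (3 counts). An H3K4me1 region lay within 500 bp of 6 of the 9, or 66.7% (29.9% to 92.5%), against 25.2% of all replicate 2 peaks, overlaps included. These 6 were the peaks of TGFA and HBEGF, all 3 of EGFR and the ERBB3 peak with a score of 21, with gaps of 22 to 375 bp. The intervals treat the peaks as independent, but peaks of the same window are not, and 3 of these 6 came from EGFR. The whole list's shares are therefore not judged against the intervals, and no test was made. The distance of 500 bp was not varied.

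**Figure D5:**
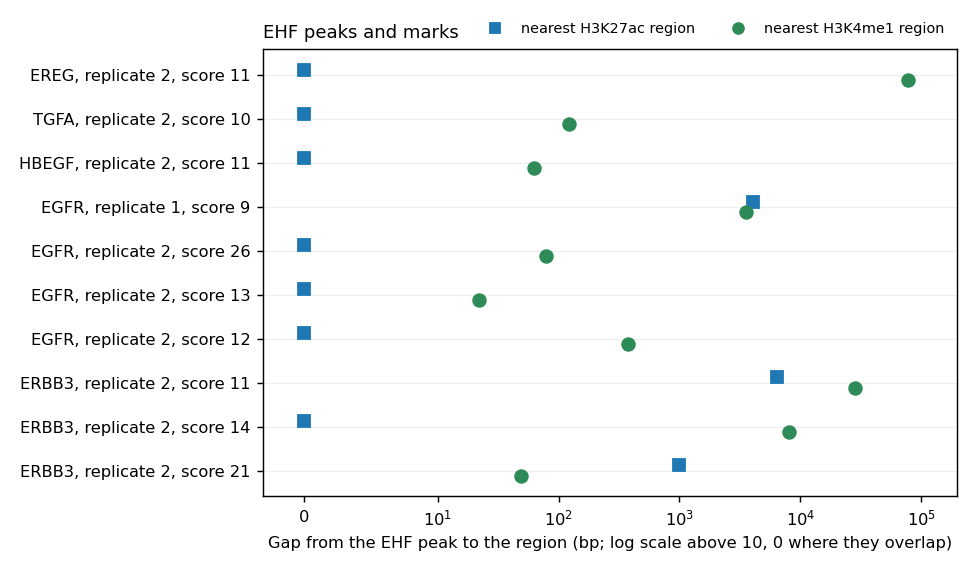
Gap in bp from each of the 10 EHF peaks to the nearest H3K27ac region (squares) and H3K4me1 region (circles), on a log scale above 10 bp, with 0 for an overlap. Of the 9 replicate 2 peaks, 7 have the square at 0, none has the circle there, and 6 have the circle between 22 and 375 bp.

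Seen from the marks, 7 of the 33 H3K27ac regions in the windows overlapped an EHF peak, or 21.2% (exact 95% binomial interval 8.98% to 38.9%), against 9.82% of all H3K27ac regions. The regions of the windows were wider than usual, with a median of 1808 bp against 1370 bp. Among those of 2000 bp or more, 5 of 15 in the windows overlapped an EHF peak (33.3%, 11.8% to 61.6%), against 18.3% of all. The regions of the windows also had a higher score per kb, with a median of 40.4 against 27.9, a ratio of 1.45. Regions of equal width were not compared, so the part of the greater width in this ratio was not tested.

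By count of regions, the marks coincided about as often as elsewhere. By bases pooled over the windows they coincided somewhat less, but for H3K27ac this depends on the EREG domain. Of the H3K4me1 bases in the windows, 33.2% also carried H3K27ac, against 42.1% in the genome. Of the H3K27ac bases, 11.8% also carried H3K4me1, against 15.3% in the genome. By window this share was 75.6% at AREG, 28.1% at TGFA, 17.7% at EGFR and 13.0% at HBEGF. At EREG and ERBB3 no bases carried both marks, and the EREG domain alone made up 32.1% of the H3K27ac bases in the windows. In the windows 15 of 38 H3K4me1 regions overlapped an H3K27ac region, or 39.5% (24.0% to 56.6%), against 45.2% of all. Conversely, 11 of 33 H3K27ac regions overlapped an H3K4me1 region, or 33.3% (18.0% to 51.8%), against 34.5% of all. The windows differed among themselves. H3K4me1 overlapped H3K27ac in 7 of 16 regions at EGFR and 6 of 13 at TGFA, and in 1 of 6 at HBEGF, 1 of 2 at AREG and 0 of 1 at ERBB3. By score per kb, the median H3K27ac region was highest at ERBB3, at 55.1, followed by 46.9 at HBEGF, 40.4 at EGFR, 36.0 at EREG, 32.7 at TGFA and 22.7 at AREG. The ranges of the first 5 overlapped, and the single AREG region lay within those of TGFA and EGFR. The ERBB3 regions were all 2047 bp wide or more, and widths were not matched between windows.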

How the data were processed

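ChIP-seq interval lists of 4 libraries of Calu-3 cells were used. The submitters' processing notes name Bowtie 1.0.0, HOMER 1.2 and hg19. Per the file headers, HOMER findPeaks called each library alone at a false discovery rate of 0.01, 4-fold over input with a Poisson p of 0.0001. It ran in factor style for EHF, with peaks of 1 fixed size per library, and in histone style for the marks, whose region widths vary and are the caller's. The deposited score is a normalized tag count that the authors rounded to whole numbers, per the file headers.

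Windows were read from the definition above, positions are 1-based, and overlap meant 1 bp. Coverage was clipped at window edges. Tiles started at base 1 of each chromosome and ended at the furthest interval. All EHF peaks were given, with the 3 highest-scoring and the widest H3K27ac regions and the 2 highest-scoring H3K4me1 regions of each window. Gene order, strands and promoters came from RefSeq tables of GRCh38.p14, in which promoters of 5 of the 6 genes were found, and no coordinates were converted. The strand of ERBB3 is background knowledge. Other genes of the pathway need an hg19 annotation and were not analysed here. Overlaps, coverage and exact intervals were computed in Python 3.11.15 (pandas 2.3.3, scipy 1.17.1, numpy 2.4.6) with functions tested on simulated data. The members and lists were chosen with earlier results of these data known. Separate cultures for the EHF replicates are not stated in the labels.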

Additional observations from a re-analysis of the deposited data

How the results depend on the processing

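Of 52 alternative values, 44 stayed within the tolerance (1.5 times for counts, 1.1 times for coverage and levels, the exact 95% interval for shares). Some of the 44 were counts of 0 under settings that could only remove peaks or overlaps, and these could not move. The intervals for shares are wide. With overlap by centre, the share of H3K27ac regions overlapping H3K4me1 was 18.2% instead of 33.3%, which still counted as within the tolerance. With windows shortened by 20 kb at both ends, H3K27ac covered 13.1% and H3K4me1 4.63% of the windows, and with windows extended by 50 kb 9.56% and 3.42%, instead of 10.7% and 3.8%. Leaving out the EREG domain, an alternative added after the data were seen, gave 7.26% for H3K27ac. With scores above the lower quartile of each list, the H3K27ac level per kb was 1.28 times the list's median instead of 1.45 times. Without either EHF replicate in turn, the EHF peaks in the windows ranged from 1 to 9, those in H3K27ac from 0 to 7 and those in H3K4me1 stayed at 0. The lower values are those without replicate 2, which supplied 9 of the 10 peaks. No paired analysis was possible because only the EHF libraries are numbered and no groups were compared. The planned look at other pathway genes and at peak sequences needs an hg19 annotation and genome and was not run. The EHF calls in the windows rest on about 8 to 22 tags each, which limits the precision of their scores.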

Other observations

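The AREG value depends on where its window ends. With 50 kb added on both sides, H3K27ac covered 24.4% of it instead of 1.47%. The added bases took in the EREG domain on the side of lower coordinates. On the other side they took in an H3K27ac region of 17927 bp, chr4:75395425-75413351, which began 25.4 kb beyond the window and had a score of 947, ranked 191 of 34638. It was noticed after the values were seen, and the gene it belongs to was not analysed here. In the EREG window the share moved to 78.8% with 20 kb removed on both sides and to 20.4% with 50 kb added.

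EHF peaks continued beyond the ERBB3 window. With 20 kb removed at both ends the window held 1 peak of replicate 2 instead of 3, and with 50 kb added it held 5. Within 50 kb outside it lay 2 more peaks of replicate 2, chr12:56435319-56435443 with a score of 12 and chr12:56546048-56546172 with a score of 11. They lay inside H3K27ac regions of 1965 bp and 1707 bp, with scores of 153 and 107. No EHF peak was added by the same extension at TGFA, HBEGF or EGFR.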
